A study of Mus musculus with 9 samples.

Results

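Rbpms encodes RBPMS, also called hermes, an RNA-binding protein (gene ID 19663, mouse chromosome 8 in the assembly GRCm38.p6). It is 1 of 12393 genes named on the array, and it was read by every probe set whose platform annotation gave Rbpms as its sole gene symbol, which were 4 of the 22626 probe sets that are not array controls. A probe set is a group of short probes that together read 1 transcript region. RAW 264.7, the mouse macrophage line studied, gave the total RNA, which was hybridised to 9 Affymetrix arrays, 1 per sample. In 3 samples the cells were untreated, in 3 they had received 100 ng/ml of bacterial lipopolysaccharide (LPS) for 18 h, and 3 came from cells labelled as overexpressing CstF-64 constitutively. CstF-64, the product of Cstf2, binds RNA downstream of polyadenylation sites. The labels do not say which promoter drove the construct, whether the overexpressing cells were 1 clone or a pool, or whether an empty construct was used. Nothing in the labels says that replicates were separate cultures, so all spreads and p-values below describe these samples and may be technical.

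RBPMS carries an RNA recognition motif and binds RNAs that hold CAC elements. In vascular and visceral smooth muscle it is known as a regulator of alternative splicing that favours the differentiated, contractile pattern, and in the retina its antibody staining marks ganglion cells. It has also been reported to bind SMAD proteins of the TGF-beta pathway and to restrain transcription by AP-1, and it can enter stress granules. Arrays of this kind read the level of a transcript region and not its splicing or its protein.

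Rbpms was near the level of absent control transcripts in untreated cells and clearly above it in the arrays labelled CstF-64. The Bacillus control probe sets, which have no target unless RNA is spiked in, numbered 27 and reached at most 31.2, and this value is used as the background limit. All 4 Rbpms probe sets lay below that limit on all 3 untreated arrays, and all 4 were higher on every CstF-64 array than on any untreated or LPS array. The probe sets 1437161_x_at and 1455936_a_at, designed on the same sequence record, exceeded the limit on all 3 CstF-64 arrays. On CstF-64 array 1 the probe sets 1425652_s_at (11.0) and 1429359_s_at (17.2) were below it. Rbpms was chosen by its intensities in these same 9 arrays, so the values are given as a description with no test. A change in the share of cells with the transcript and a change in its amount per cell cannot be told apart in these bulk samples.

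The brightest probe set, 1437161_x_at, had intensities of 5.5, 7.0 and 6.6 on untreated arrays 1, 2 and 3. It read 32.0, 25.7 and 26.9 on the LPS arrays and 115.7, 175.5 and 160.6 on the CstF-64 arrays. The groups thus fell in the order untreated, LPS, CstF-64 with no overlap, and only the CstF-64 arrays were well clear of the background limit. The group means were 6.37 ± 0.777, 28.2 ± 3.35 and 151 ± 31.1 (SD, n = 3 each). With the untreated level taken at the background limit, the CstF-64 level was at least 4.75-fold higher, and with the LPS arrays below the limit taken at it, at least 4.71-fold higher than after LPS. LPS array 1 exceeded the limit by a small margin and the other two LPS arrays did not, so no fold is given between LPS and untreated cells.

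The probe set 1455936_a_at was designed on the same sequence record as 1437161_x_at, and the pair are therefore not independent readings. It read 3.2, 2.0 and 1.7 in untreated cells, 13.3, 1.8 and 3.7 after LPS, and 44.0, 45.8 and 49.9 in the CstF-64 arrays. Here the CstF-64 arrays were close together (46.6 ± 3.02, SD, n = 3) and all above the limit, at least 1.49-fold over either other group. LPS array 1 stood above the other LPS arrays, while LPS array 2 lay within the untreated range, so LPS and untreated values overlapped. Of the LPS readings of this pair, 1 of 6 exceeded the background limit.

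The other two probe sets come from separate sequence records. The probe set 1425652_s_at read 5.8, 4.9 and 3.9 in untreated cells, 3.9, 5.2 and 3.1 after LPS, and 11.0, 46.0 and 64.6 in the CstF-64 arrays. Its CstF-64 arrays spread widely (40.5 ± 27.2, SD, n = 3), with array 1 below the background limit and arrays 2 and 3 above it, and its geometric mean was at least 1.02-fold over either other group. The probe set 1429359_s_at read 5.6, 1.7 and 3.4 in untreated cells, 3.3, 5.5 and 4.1 after LPS, and 17.2, 31.9 and 37.5 in the CstF-64 arrays. It again had array 1 lowest and below the limit, and its geometric mean stayed under the limit, so that no fold is given. On both of these probe sets untreated and LPS values overlapped throughout. By the array maker's naming, _s_at marks probes shared by transcripts that may come from different genes, _x_at probes that may also match other sequences, and _a_at probes shared by transcripts of 1 gene. The annotation used here names no second gene for any of the 4. They were selected by that very property, so it does not show that their probes match Rbpms alone.

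**Figure D1:**
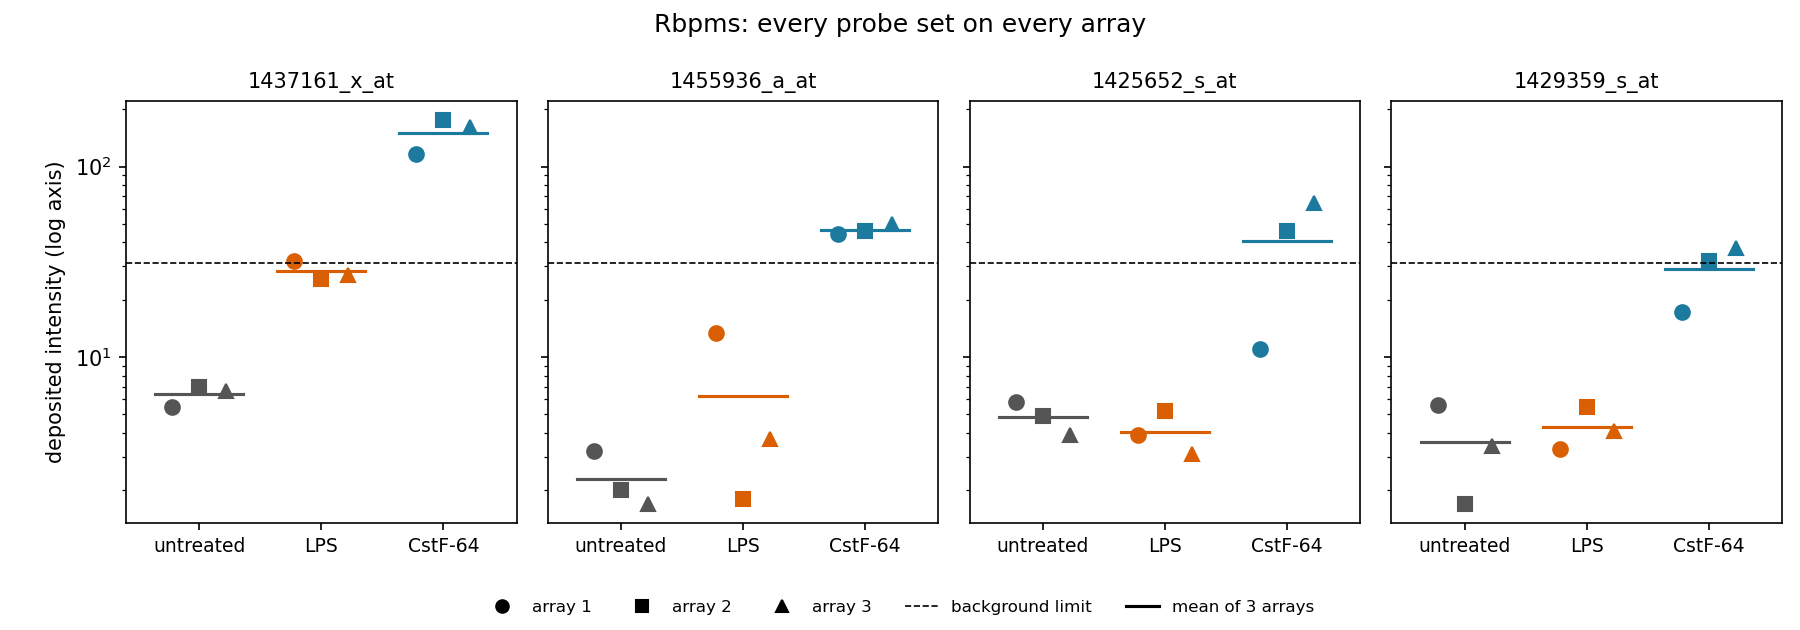
Deposited intensity (log axis) of the 4 Rbpms probe sets on each of the 9 arrays, by group; the marker shape gives the array number, the solid line the mean of 3 arrays, and the dashed line the background limit of 31.2. On every probe set the CstF-64 arrays lie above all untreated and LPS arrays, and for 1437161_x_at the LPS arrays (25.7 to 32.0) also lie above the untreated arrays (5.5 to 7.0).

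The count of probe sets whose groups do not overlap has a background over the whole array. For CstF-64 against untreated cells the CstF-64 arrays all lay above the untreated arrays on 4 of 4 Rbpms probe sets, against 6.67% of all probe sets. For CstF-64 against LPS it was again 4 of 4, against 19.4% of all probe sets. For LPS against untreated cells it was 1 of 4, against 12.2%. These comparisons share arrays, and nothing is read from the counts because the values had chosen the gene.

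Differences were also expressed on the scale log2(intensity + 13), where the added 13 damps the noise of dim probe sets and understates their change. On this scale CstF-64 exceeded untreated cells by 3.06 (limma SE 0.18) for 1437161_x_at. For 1455936_a_at the CstF-64 difference was 1.96, for 1425652_s_at 1.42 and for 1429359_s_at 1.31. The untreated readings in these differences are all below the background limit, so the differences depend on the added 13 and are no folds; the bounds given above are the folds that the readings allow. The LPS arrays differed from untreated cells by 1.09, 0.29, -0.07 and 0.07 on the same scale and in the same order of probe sets, with all but 1 of the readings behind these values below the limit.

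**Figure D2:**
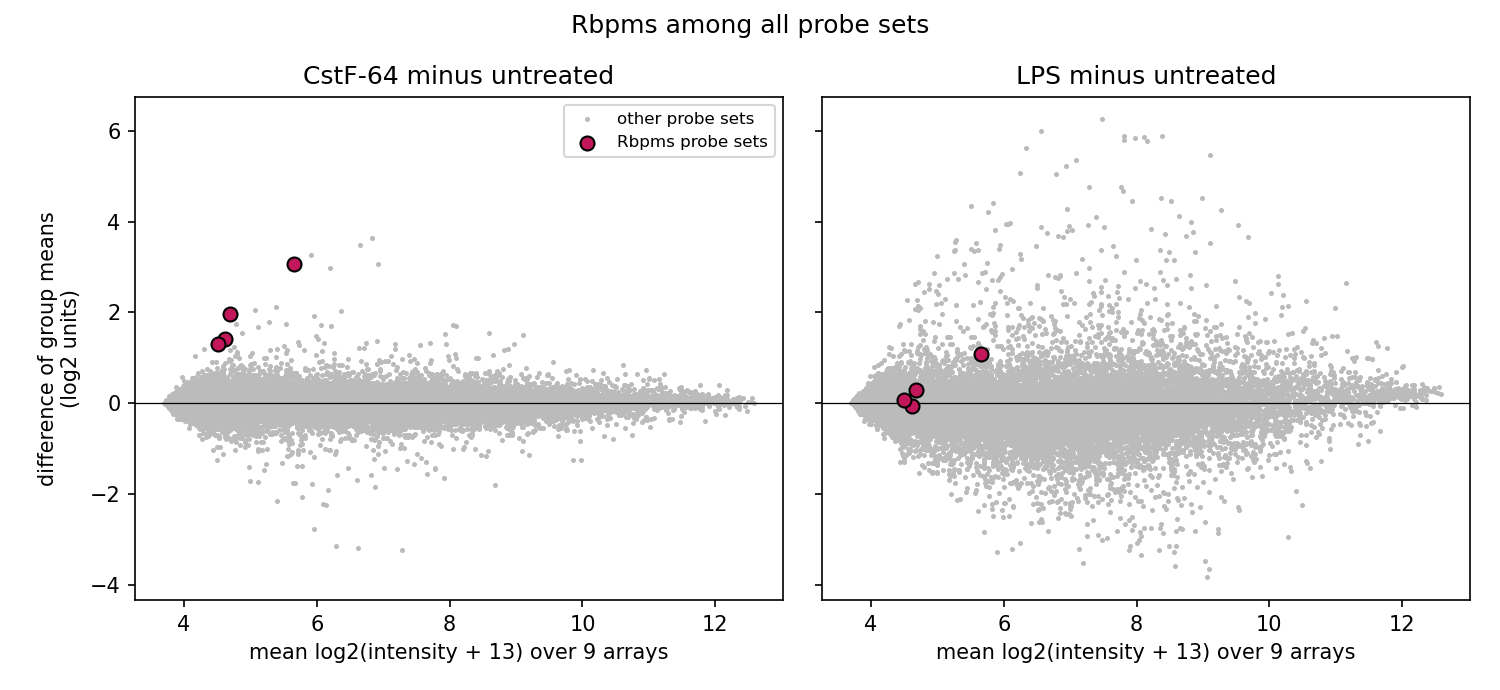
Difference of group means (log2 units) against the mean log2(intensity + 13) over the 9 arrays for 22626 probe sets, CstF-64 minus untreated on the left and LPS minus untreated on the right, with the 4 Rbpms probe sets in colour. On the left the Rbpms points (1.31 to 3.06) lie at the upper edge of the cloud among dim probe sets, and on the right 3 of them lie near 0 and 1437161_x_at at 1.09.

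Within the CstF-64 arrays the log2 ratio of 1437161_x_at to 1455936_a_at, after adding 13, was 1.18, 1.68 and 1.46 on arrays 1, 2 and 3, with both readings above the background limit each time. On array 1 the readings of 1425652_s_at and 1429359_s_at were below the limit, so no ratio to them is given there. On arrays 2 and 3 the ratio was 1.68 and 1.16 to 1425652_s_at, and 2.07 and 1.78 to 1429359_s_at. Probe sets differ in how brightly they report the same amount of RNA, so these ratios do not compare amounts. Over all 9 arrays 1425652_s_at and 1429359_s_at correlated at r = 0.96, the pair with the shared design record at r = 0.95, and 1437161_x_at with 1425652_s_at at r = 0.83. The remaining pairs lay between 0.83 and 0.92. Most readings of 1425652_s_at and 1429359_s_at behind these coefficients were below the background limit. The coefficients rest on 9 arrays in 3 groups and carry no p.

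CstF-64 array 1 was the lowest CstF-64 array on all 4 Rbpms probe sets. Of the 36 other probe sets among the 40 largest differences of CstF-64 over untreated cells, array 1 was lowest on 24, array 2 on 8 and array 3 on 4. Some genes have more than 1 probe set among these. The share over all probe sets is not given, so nothing is read from these counts. This array had a mean correlation of 0.975 with its own group over all probe sets, against 0.982 and 0.983 for CstF-64 arrays 2 and 3. Its part in the Rbpms values was not tested. Without array 1 the CstF-64 difference from untreated cells was 3.22 for 1437161_x_at and 1.92 for 1425652_s_at.

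The label of the CstF-64 arrays has a limit that applies to all of these values. Cstf2 had 1419645_at as its brighter probe set, with readings of 397.8, 363.1 and 372.2 in untreated cells and of 317.9, 361.5 and 394.5 in the arrays labelled CstF-64, so the groups overlapped (limma adjusted p = 1.00). After LPS it read 220.5, 248.1 and 195.9. The dimmer probe set, 1419644_at, read 114.7, 100.2 and 134.1 in untreated cells, 136.1, 107.0 and 113.0 after LPS, and 97.1, 85.4 and 80.4 in the CstF-64 arrays, so every array labelled CstF-64 was below every other array (against untreated cells log2 -0.36, limma adjusted p = 0.763). Neither Cstf2 probe set was thus higher in the arrays labelled CstF-64, and the dimmer one ran against the label. Whether their probes lie inside the expressed construct is not known. The label is therefore used only to name these arrays. No second library of the series carries an empty construct by its label, so other differences between the cell populations cannot be told apart from CstF-64 itself.

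RBPMS has a close paralog, RBPMS2. The array's probe set for Rbpms2 also lists Gm3470, so it cannot be given to 1 gene. It read 31.1, 43.5 and 46.3 in untreated cells, 40.8, 35.8 and 27.0 after LPS, and 38.3, 42.7 and 30.2 in the CstF-64 arrays. These readings overlapped across the 3 groups and did not follow Rbpms, with limma adjusted p of 0.658 after LPS and 1.00 for CstF-64 against untreated cells.

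A criterion chosen after the values were seen asked how many probe sets were at or below 31.2 on all untreated and LPS arrays and above it on all CstF-64 arrays. Rbpms 1455936_a_at was 1 of 20 such probe sets, which is 0.0884% of those measured. The probe set 1437161_x_at missed it because LPS array 1 read 32.0. The opposite pattern, above the limit everywhere but in the CstF-64 arrays, was found for 18 probe sets. Among the 20 were 1 probe set of Plpp3, a lipid phosphate phosphatase, with 47.7, 57.2 and 66.3 in the CstF-64 arrays, and Map2k6, a kinase that activates p38, with 42.5, 93.5 and 96.1. As for Rbpms, array 1 was the lowest CstF-64 array for both. These are picked examples, and other probe sets among the 20 had a different CstF-64 array lowest.

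The genes whose pattern over the 9 arrays was most like that of 1437161_x_at were found by Pearson correlation among 1106 genes that were above the limit in some group and differed by at least 1 log2 unit between groups. Their r is a description over 9 arrays in 3 groups and carries no p. The nearest was Akap2, a kinase anchoring protein, at r = 0.98, with 52.9, 62.7 and 57.2 in the CstF-64 arrays and 22.7, 20.7 and 16.4 in untreated cells. Vopp1 followed at r = 0.95 and Trem3, a myeloid receptor, at r = 0.95. Trem3 read 181.8, 175.2 and 216.9 in the CstF-64 arrays, 79.1, 99.3 and 103.9 after LPS and 82.1, 62.3 and 56.3 in untreated cells. Like Rbpms 1437161_x_at, Akap2 and Vopp1 had intermediate values after LPS, at 26.4 to 34.2 and 27.1 to 34.4, whereas for Trem3 LPS array 1 lay inside the untreated range. Genes chosen by correlation over these same arrays are favoured to share such an order, so nothing is read from that likeness. All untreated readings of Akap2 and Vopp1, and all but 1 LPS reading of each, were below the background limit.

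Plod2 (r = 0.94), a collagen lysyl hydroxylase, and P4ha2 (r = 0.92), a collagen prolyl hydroxylase, were also among the 8. Plod2 read 288.1, 660.8 and 806.5 in the CstF-64 arrays against 18.9, 29.8 and 49.6 in untreated cells, and P4ha2 read 107.9, 364.7 and 355.6 against 12.4, 12.8 and 39.9. Both genes shared with Rbpms 1437161_x_at a lower CstF-64 array 1 and a highest LPS value on LPS array 1, where Plod2 read 107.8 and P4ha2 77.1. The choice by correlation over these same arrays favours such a shared order, so nothing is read from it. A second probe set of Plpp3 (r = 0.93), Gpr35, a receptor of the G protein-coupled family (r = 0.90), and Pla1a, a phospholipase (r = 0.89), completed the 8. Only 6 of the 1106 genes exceeded r = 0.9, and the median r was -0.01.

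In the opposite direction the 4 genes with the lowest r were Trip6, an adaptor at cell adhesions (r = -0.97), Svil, the actin-binding protein supervillin (r = -0.96), Morc4 (r = -0.95) and Kdm5d, a Y-linked histone demethylase (r = -0.94). Trip6 read 135.3, 96.2 and 101.6 in the CstF-64 arrays against 319.6, 377.2 and 427.2 in untreated cells. Svil read 33.7, 45.2 and 32.1 against 145.9, 153.0 and 148.2. Kdm5d read 19.3, 15.0 and 12.7 against 110.6, 88.2 and 61.7, so its CstF-64 values were below the background limit. The 12 genes lie on several chromosomes, and none of the 11 placed in the gene table is on chromosome 8.

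**Figure D3:**
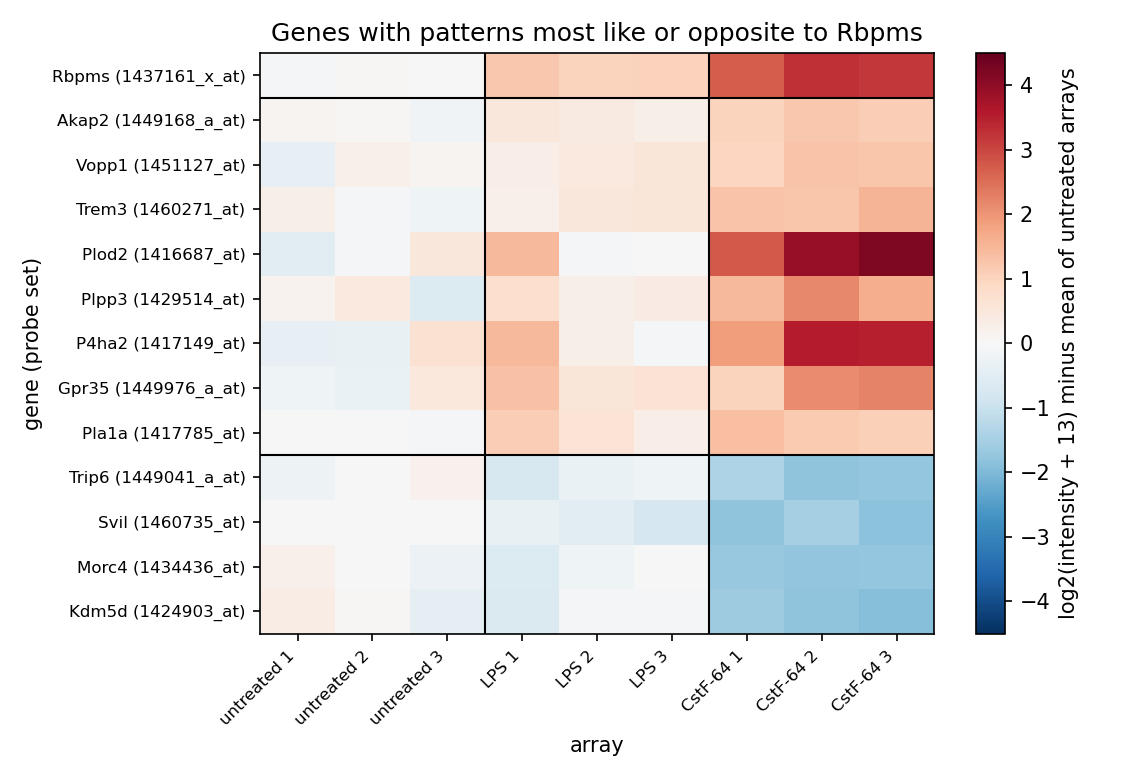
Log2(intensity + 13) minus the mean of the untreated arrays, by array, for Rbpms 1437161_x_at (top), the 8 genes with the highest and the 4 genes with the lowest Pearson correlation with it over 9 arrays. Red cells are above and blue cells below untreated cells; the CstF-64 arrays carry the strong colours, and LPS array 1 is the reddest LPS array for Rbpms, Akap2, Plod2, Plpp3, P4ha2, Gpr35 and Pla1a.

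The genes next to Rbpms on chromosome 8 were read for comparison, taking the 5 nearest measured genes on each side in the gene table and the brightest probe set of each. In CstF-64 against untreated cells none of the 10 was called by limma in either direction (adjusted p of 0.658 or more), where 0.105% of all genes were called higher and 0.169% lower. At an unadjusted p under 0.05, 0 were higher and 1 was lower. Gtf2e2, a general transcription factor subunit next to Rbpms, read 502.7, 991.2 and 1015 in the CstF-64 arrays and 660.0, 600.8 and 841.1 in untreated cells. Dctn6, a dynactin subunit on the other side, read 218.3, 244.7 and 360.7 against 341.5, 263.1 and 193.7. The groups overlapped for both.

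After LPS 1 of the 10 neighbours fell and none rose, where 10.4% of all genes fell and 6.67% rose. Eri1, an exonuclease that trims histone mRNA, went from 176.3, 192.4 and 174.0 to 69.8, 95.3 and 101.1, a fall of 0.94 on the log2 scale with limma (adjusted p = 0.0028, SE 0.15). Its arrays did not overlap. In CstF-64 against LPS Eri1 was called higher and Tex15, at readings below the limit, lower, where 9.51% of all genes were called higher and 6.38% lower. Those 2 calls were each lost under 4 alternative settings. Without CstF-64 array 3 neither was called, and Eri1 was not called without CstF-64 array 2 nor Tex15 without CstF-64 array 1 or LPS array 1. The count of neighbours that rose after LPS was 1 without LPS array 1 (Ppp2cb) and 1 without CstF-64 array 1 (Leprotl1).

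**Figure D4:**
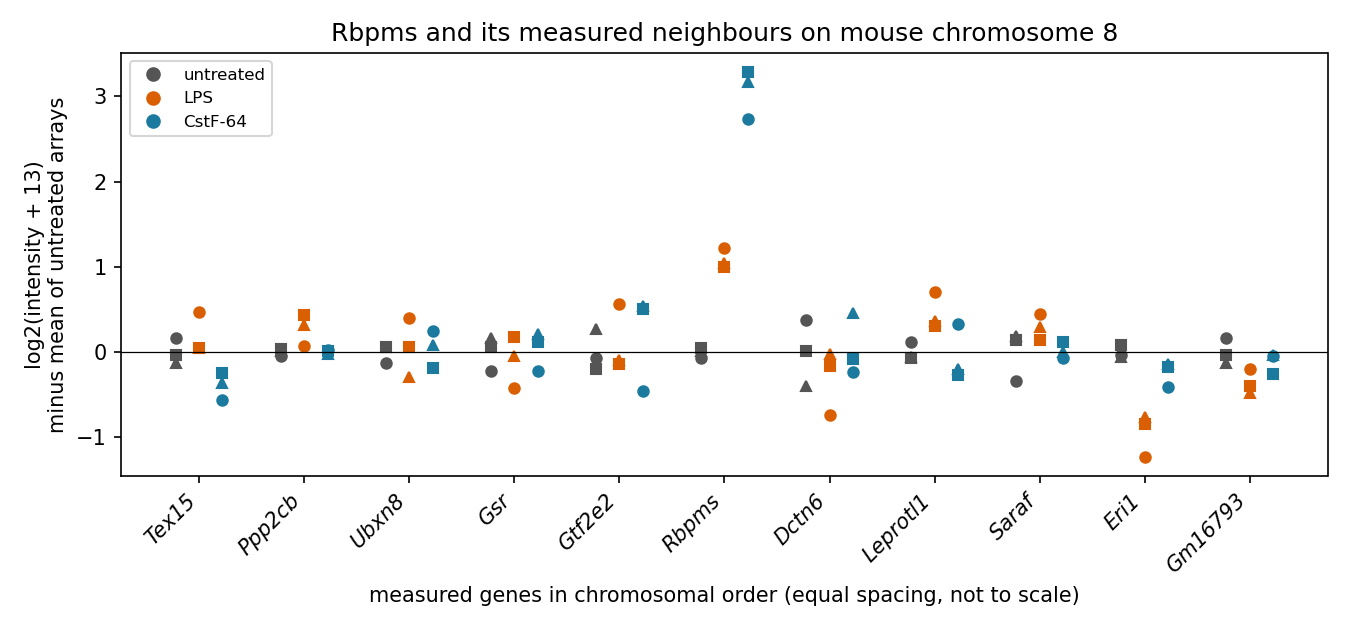
Log2(intensity + 13) minus the mean of the untreated arrays for Rbpms 1437161_x_at and its 10 nearest measured neighbours in chromosomal order (equal spacing, not to scale), each point 1 array and marker shapes the array number as in the plot of Rbpms by array. The CstF-64 points of Rbpms lie near 3 while those of the neighbours lie around 0, and Eri1 is low in the LPS arrays.

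Cell types known for Rbpms were checked through their markers, by the brightest probe set of each gene. Of 19 smooth muscle contractile genes, 9 had no array above the background limit in any group, among them Myh11, Tagln, Cnn1 and Myocd. Acta2, smooth muscle actin, and Des, desmin, were above it on all 9 arrays, Acta2 at 81.8 to 100.4 in the CstF-64 arrays against 85.1 to 108.9 in untreated cells and Des at 46.5 to 65.2 against 55.8 to 60.8. Actn1, Tpm1, Tpm2, Srf and Vcl were also above the limit on all 9 arrays. The summed intensity of the 19 was 1779 to 2926 in the CstF-64 arrays and 2125 to 2271 in untreated cells. Actn1 was the largest part of it, at 1719.1, 805.4 and 817.0 on CstF-64 arrays 1, 2 and 3 and 1033.4 to 1080 in untreated cells. The sum therefore follows Actn1 more than the other members. Of 13 neuron and ganglion cell markers, none was above the limit on any untreated array and 12 were not on any CstF-64 array, where the sum was 85.5 to 126 against 101 to 131 in untreated cells. Of 15 fibroblast and endothelial markers, 9 were not above the limit on any CstF-64 array, Col1a1, Col3a1, Pecam1 and Cdh5 among them, with sums of 358 to 413 against 337 to 382. Col1a2, Kdr, Cspg4 and Rgs5 were above it on all 3 CstF-64 arrays and all 3 untreated arrays. Vwf, von Willebrand factor of endothelial cells, read 38.9, 22.8 and 33.2 in the CstF-64 arrays, above all untreated readings (2.8, 20.7 and 15.0, limma adjusted p = 0.530) and all LPS readings (1.1, 7.2 and 4.7, limma adjusted p = 0.0086). The part of these markers in the Rbpms values was not tested. None of these 3 lists had a member called between CstF-64 and untreated cells by limma; at an unadjusted p under 0.05 there were 2 higher in all, 1 smooth muscle and 1 fibroblast or endothelial gene, and 2 lower. The macrophage markers were present, 14 of 16 above the limit on some untreated array, with Lyz2 at 4919 ± 844 in untreated cells and 5010 ± 490 in the CstF-64 arrays (SD, n = 3). Not all were as level as Lyz2. Adgre1 read 511 ± 95.9 in untreated cells and 221 ± 10.7 in the CstF-64 arrays (SD, n = 3). Cybb likewise read 1175 ± 203 and 837 ± 124, and Itgam 168 ± 38.5 and 115 ± 5.58. Fcgr1 went the other way, at 108 ± 25.5 and 153 ± 5.18. No macrophage marker was called between CstF-64 and untreated cells by limma, and at an unadjusted p under 0.05, 0 were higher and 3 lower.

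Over 152 measured genes of 8 lists, none was called higher or lower between CstF-64 and untreated cells by limma, where 0.105% and 0.169% of all genes were called. At an unadjusted p under 0.05, 7 were higher and 6 lower, and the median difference was 0.00 against 0.01 over all genes. Smad2, Smad3 and Smad4, the SMAD proteins of the TGF-beta pathway, differed from untreated cells by -0.05, -0.15 and -0.13 log2 units (limma adjusted p of 1.00 each). Id2, an inhibitor of helix-loop-helix factors, and Batf2, an AP-1 family member, had the smallest adjusted p of their lists, with log2 differences of 1.28 and 1.29 (limma adjusted p = 0.222 and 0.158). Adgre1, the macrophage marker F4/80, read 221 ± 10.7 against 511 ± 95.9 in untreated cells (log2 -1.15, limma adjusted p = 0.0777). Without LPS array 1, which enters only through the shared estimate of the spread, Id2 (adjusted p = 0.0459) and Adgre1 (0.0157) were called.

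After LPS 11 of the 12 Rbpms readings were below the background limit. More genes were called than for CstF-64 over the whole array, 2118 against 34 of all named genes, and the lists shared in this. They had 19 of 152 genes higher and 17 lower against 6.67% and 10.4% of all genes, the share lower being close to that of all genes. The AP-1 factors had 6 of 13 higher and none lower (median 0.80 against -0.03 over all genes), among them Atf3 (log2 2.21, limma adjusted p = 0.0036), Batf2 (at least 2.41-fold), Junb (log2 1.39) and Jund (log2 0.80). Of 29 alternative splicing regulators 6 fell, among them Celf2 (325 ± 33.9 to 103 ± 20.1), Mbnl1 (log2 -1.34), Khdrbs1 (log2 -1.16) and Matr3 (log2 -0.60), and Khdrbs3 rose at readings below the limit, a call lost without any of 6 arrays taken singly (untreated 2 and 3, LPS 1 and 3, CstF-64 2 and 3). Of 22 stress granule proteins 6 fell and none rose, among them Pum2 (427 ± 26.6 to 218 ± 10.5) and Tardbp (log2 -1.11), where leaving out either of untreated arrays 2 and 3 left 3 called. Of 28 TGF-beta and SMAD genes 4 rose, Tgif1 (156 ± 14.8 to 331 ± 5.77) first by p, and the receptors Tgfbr1 (log2 -0.94) and Tgfbr2 (log2 -0.78) fell; the counts were 2 and 1 with untreated array 2 left out, and 1 fell with untreated array 3 left out. Of the smooth muscle genes 1 rose, Myocd, below the limit on all arrays, and 1 fell, Vcl. None rose without untreated array 1 or 3 or LPS array 1, and the call of Myocd was also lost without LPS array 2. Of the 16 macrophage markers 6 rose, Adgre1 among them (log2 1.68, limma adjusted p = 0.00056), and 2 fell, Csf1r and Laptm5. Of the fibroblast and endothelial markers 1 rose, Dcn, and of the neuron and ganglion cell markers none was called by limma, with 0 at an unadjusted p under 0.05. Under median centring of the arrays, which shifts the LPS difference of all probe sets by 0.16, the lists had 23 higher and 13 lower, and 2228 probe sets were higher and 1455 lower where the deposited scaling gave 1341 and 2414.

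CstF-64 against LPS uses the arrays of both other comparisons. With dim LPS readings taken at the background limit, Rbpms was at least 4.71-fold higher in the CstF-64 arrays on 1437161_x_at, 1.49-fold on 1455936_a_at and 1.02-fold on 1425652_s_at, and no fold is given for 1429359_s_at. The differences of log2(intensity + 13), which depend on the added 13, were 1.97, 1.67, 1.49 and 1.24 in that order, and no CstF-64 array overlapped an LPS array on any of the 4. Over the 8 lists 15 genes were called higher and 11 lower in that comparison, against 9.51% and 6.38% of all genes, with 7 lower without CstF-64 array 3. Median centring gave 12 higher and 23 lower there, and turned 2133 probe sets higher and 1310 lower into 1249 and 2097. Rbpms thus had its highest level in the CstF-64 arrays on every probe set, and the neighbouring groups in that order, LPS and untreated, did not overlap on 1437161_x_at alone, where 5 of their 6 readings were below the limit.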

How the data were processed

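The authors deposited 1 table of intensities on a linear scale for 22690 probe sets and 9 arrays. How background was corrected, and with which software and scaling, is not stated in the labels. Means trimmed by 2% from each end lay between 150.05 and 150.06 on all arrays, so the deposited scaling was kept. Probe sets were named from the platform annotation, whose gene identifiers were looked up in the GRCm38.p6 gene table for current symbols, and 20380 had 1 gene, 691 several and 1555 none. Values were transformed to log2(intensity + 13), 13 being 0.25 of the median intensity of 50.2. limma 3.58.1 in R 4.3.3 (lmFit, eBayes with an intensity trend, one mean per group, all 9 arrays) gave two-sided p-values, adjusted by Benjamini-Hochberg over 22626 probe sets. "Rose", "fell" and "called" refer to an adjusted p under 0.05. In simulated data for CstF-64 against untreated cells (22626 probe sets), 58% of changes of 1 log2 unit and 98% of 2 units were called, and in that for LPS 60% and 98%.

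Rbpms, the lists and the rules were chosen with earlier results of these data known. Genes named by rule were Rbpms, Cstf2, the probe set listing Rbpms2, and the 8 genes most and 4 least correlated with Rbpms. The rule also took its 10 chromosomal neighbours, and up to 4 called members of each list per comparison or 2 by smallest adjusted p. Only some of these neighbours and list members are named in the text, picked with their values in view. Genes outside that rule were named after their values were seen: Map2k6, Smad2, Smad3, Smad4, Lyz2, Khdrbs3, Csf1r, Laptm5 and the marker genes given as above or not above the background limit. Precision is limited by having 3 arrays in each group. Alternatives tried were quantile normalization, median centring, pseudocounts of 1 and of the median intensity, a filter on dim probe sets, the replicate number as a block, pairwise fits, no intensity trend, the mean of a gene's probe sets, Spearman correlation and leaving out each array. Samples of different groups share replicate numbers, but their deviations from the group means correlated at only -0.06 to 0.16 for the same number and -0.24 to 0.20 for different numbers, so the numbers were not taken as pairs.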

Additional observations from a re-analysis of the deposited data

How the results depend on the processing

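The CstF-64 differences of all 4 Rbpms probe sets from untreated cells stayed above 0 under 13 of 13 alternatives, as did those from LPS. Because the CstF-64 arrays overlapped neither group, leaving out an array or changing the pseudocount could not reverse these signs. Nothing is therefore read from that count. Their size follows the pseudocount, because the untreated values are below the background limit. With a pseudocount of 1 the differences from untreated cells were 4.35 for 1437161_x_at, 3.87 for 1455936_a_at, 2.52 for 1425652_s_at and 2.73 for 1429359_s_at, and 1437161_x_at differed by 1.99 between LPS and untreated cells and by 2.36 between CstF-64 and LPS. The mean log2 ratio of 1437161_x_at to 1429359_s_at over the CstF-64 arrays, array 1 below the limit included, was then 2.39. With the median intensity as pseudocount, 1437161_x_at gave 1.82, 0.47 and 1.35 for the same 3 differences, 1455936_a_at gave 0.88 and 1429359_s_at 0.55, the ratios to these were 1.04 and 1.34, and 4 of the 8 genes with a pattern like Rbpms were kept. Median centring gave 1437161_x_at an LPS difference of 1.24, 1 neighbour higher after LPS, and 0 neighbours higher, 2 neighbours lower and 23 list genes lower for CstF-64 against LPS. Quantile normalization gave 0 neighbours higher and 18 list genes lower there. The filter on dim probe sets and the fit of only the 2 groups compared each gave 1 list gene lower for CstF-64 against untreated cells (Adgre1) and 0 neighbours lower for CstF-64 against LPS. With the replicate number as a block, 1 neighbour was higher after LPS, 2 were lower for CstF-64 against LPS, and 13 probe sets were higher and 19 lower for CstF-64 against untreated cells, where 23 and 33 were called without it; the numbers do not pair the samples. Leaving out 1 array gave 0 to 1 neighbours higher after LPS, 0 to 1 list genes higher and 0 to 1 lower for CstF-64 against untreated cells, and 0 to 1 neighbours higher, 0 to 1 lower and 7 to 15 list genes lower for CstF-64 against LPS. The cause of the moved counts was not tested. Signal below the background limit leaves the LPS differences of 2 Rbpms probe sets without a settled sign: that of 1425652_s_at was above 0 in 1 of 13 alternatives (-0.22 to 0.09) and that of 1429359_s_at in 12 of 13 (-0.02 to 0.29).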
